A study of Danio rerio with 20 samples.

Results

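The 7 genes described here, members of the zebrafish slc16 family of membrane carriers, were followed across 4 groups of larvae: slc16a9b, slc16a9a, slc16a6b, slc16a6a, slc16a1a, slc16a1b and slc16a10. They were found by their gene symbol in the count table and make up 7 of its 16 genes with an slc16 symbol and 7 of its 32520 genes. All 7 passed the filter on low counts, as did 23121 genes in all. The genes slc16a9b and slc16a6b were chosen by their levels, since these differ between the 2 extract-exposed groups. Every value that involves an extract-exposed library is therefore given for them as a description with no p-value, while their paralogs and the others were taken along as family members.

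The study exposed wild-type zebrafish (Danio rerio) larvae, through the water, to extracts (SEC) of water that a sewage treatment plant releases after its secondary stage. SEC JUN20 and SEC OCT20 are larvae exposed to the extract from the JUN20 and the OCT20 sampling campaign, from day 4 to day 5 after fertilisation and at a strength labelled 20x. CTRL JUN20 and CTRL OCT20 are the control larvae that belong to each campaign, of the same genotype and age (5 days). Each group held 5 libraries, and each library was made from messenger RNA of 10 pooled whole larvae. Whether pools came from separate spawns is not stated, so p-values measure the spread between pools.

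Slc16 proteins, also called monocarboxylate transporters, move small acids and related molecules across cell membranes. The best-known members carry lactate, pyruvate and ketone bodies together with a proton, in a direction set by the gradients across the membrane, and need a partner glycoprotein such as basigin to reach the cell surface. Other members carry carnitine, creatine, aromatic amino acids or thyroid hormone, and several still have no settled substrate. In zebrafish, slc16a6a is known for the release of the ketone body beta-hydroxybutyrate from liver cells in fasting. In humans, SLC16A9 has been linked to the export of carnitine.

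The libraries held 28832858 to 59922353 counts each. Levels are given as CPM, the count of a gene relative to its library total after TMM scaling, a correction for differences in library composition. They are comparable between libraries for a gene but not between genes of different length. Log2 fold changes and standard errors come from edgeR, and adjusted p-values from its quasi-likelihood test over all tested genes, called under 0.05. Markers of all 9 tissues looked for were detected in every group. With extract, summed levels of 6 epidermal markers were lower, 1 of which rose in each campaign (10880 to 14085 CPM in CTRL JUN20 against 7858 to 8886 in SEC JUN20, and 11487 to 13396 in CTRL OCT20 against 5595 to 8762 in SEC OCT20). Summed photoreceptor markers were also lower, at 3412 to 3702 against 2740 to 3124 CPM in June and 3295 to 3978 against 2492 to 2854 CPM in October, with 3 and 4 of 6 called lower. Summed erythrocyte markers were higher, at 303 to 418 against 447 to 547 CPM in June and 211 to 351 against 382 to 472 CPM in October, with 1 and 3 of 6 called higher. Of 6 kidney tubule markers 2 were called higher in June and 4 in October, and 3 were lower in the October than in the June controls. Summed neuron markers were lower with the June extract (1982 to 2034 against 1791 to 1938 CPM), with 2 of 6 called lower, and overlapped in October. Over all tested genes 5.92% were called higher and 4.9% lower in June. In October these shares were 9.54% and 8.49%, and 2.97% were called lower between the controls. In whole larvae, fewer cells of a type and less RNA per cell cannot be told apart, and the part of marker shifts in the results was not tested.

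The 2 genes picked for their difference between the extracts followed the same course. Both stood a little below their controls in SEC JUN20 and more than 2-fold above them in SEC OCT20, while the control groups of the campaigns lay close together. For slc16a9b (ENSDARG00000104687) the CTRL JUN20 libraries held 15.3, 11.7, 19.6, 14.4 and 11.9 CPM. The SEC JUN20 libraries held 10.2, 10.6, 9.19, 10.7 and 14.5 CPM. In the JUN20 campaign the groups overlapped, with only 1 of the 5 exposed libraries inside the range of the controls.

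In CTRL OCT20 the slc16a9b levels were 16.9, 17.3, 15.2, 14.1 and 20.3 CPM. In SEC OCT20 they were 30.6, 31.3, 33.7, 36.7 and 48.0 CPM. Every exposed October library thus stood above every October control and above all June libraries. In order of level, the mean ± SD of 5 libraries was 11.0 ± 2.02 CPM in SEC JUN20, 14.6 ± 3.21 CPM for the June controls, 16.8 ± 2.36 CPM for the October controls and 36.1 ± 7.10 CPM in SEC OCT20. Only the step from CTRL OCT20 to SEC OCT20 separated neighbours in this order without overlap.

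The log2 fold change of slc16a9b with extract was -0.40 ± 0.16 (SE) in JUN20 and 1.1 ± 0.15 in OCT20, the latter a 2.15-fold higher level. The October effect exceeded the June effect by 1.5 ± 0.22 on the log2 scale. Between the exposed groups alone, SEC OCT20 minus SEC JUN20, the difference was 1.71 ± 0.16, and the campaign and the extract cannot be told apart in it. The controls of the campaigns differed by 0.20 ± 0.16, which did not pass the test (adjusted p = 0.478, edgeR, 95% interval -0.11 to 0.51).

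The second gene picked, slc16a6b (ENSDARG00000060246), is a paralog of the liver ketone body exporter slc16a6a. Its CTRL JUN20 libraries held 13.4, 14.0, 19.3, 12.9 and 12.7 CPM. Its SEC JUN20 libraries held 9.85, 9.12, 10.8, 9.83 and 15.3 CPM. Replicate 5 of the exposed June libraries lay among the June controls and the other 4 below all of them, so that the groups overlapped.

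In CTRL OCT20 the slc16a6b levels were 12.7, 15.3, 15.7, 14.9 and 16.2 CPM. In SEC OCT20 they were 30.3, 34.9, 35.0, 37.8 and 57.0 CPM. No October control reached the lowest exposed October library. In order of level, the mean ± SD of 5 libraries was 11.0 ± 2.50 CPM in SEC JUN20, 14.4 ± 2.75 CPM for the June controls, 14.9 ± 1.36 CPM for the October controls and 39.0 ± 10.4 CPM in SEC OCT20, again with a gap only below SEC OCT20.

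The log2 fold change of slc16a6b with extract was -0.39 ± 0.17 in JUN20 and 1.39 ± 0.17 in OCT20, a 2.62-fold higher level. The difference between these effects was 1.78 ± 0.24. Between the exposed groups it was 1.82 ± 0.17. The controls differed by 0.04 ± 0.17 (adjusted p = 0.916, edgeR, 95% interval -0.29 to 0.38). Replicate 5 held the highest slc16a9b and slc16a6b level of SEC JUN20, SEC OCT20 and CTRL OCT20. It was also the deepest library of these groups, with 59922353, 45439387 and 40168174 counts. In CTRL JUN20 replicate 3 was highest for both genes, and replicate 1 was the deepest, with 47612637 and 49041825 counts. The share of depth in these levels was not tested.

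**Figure D1:**
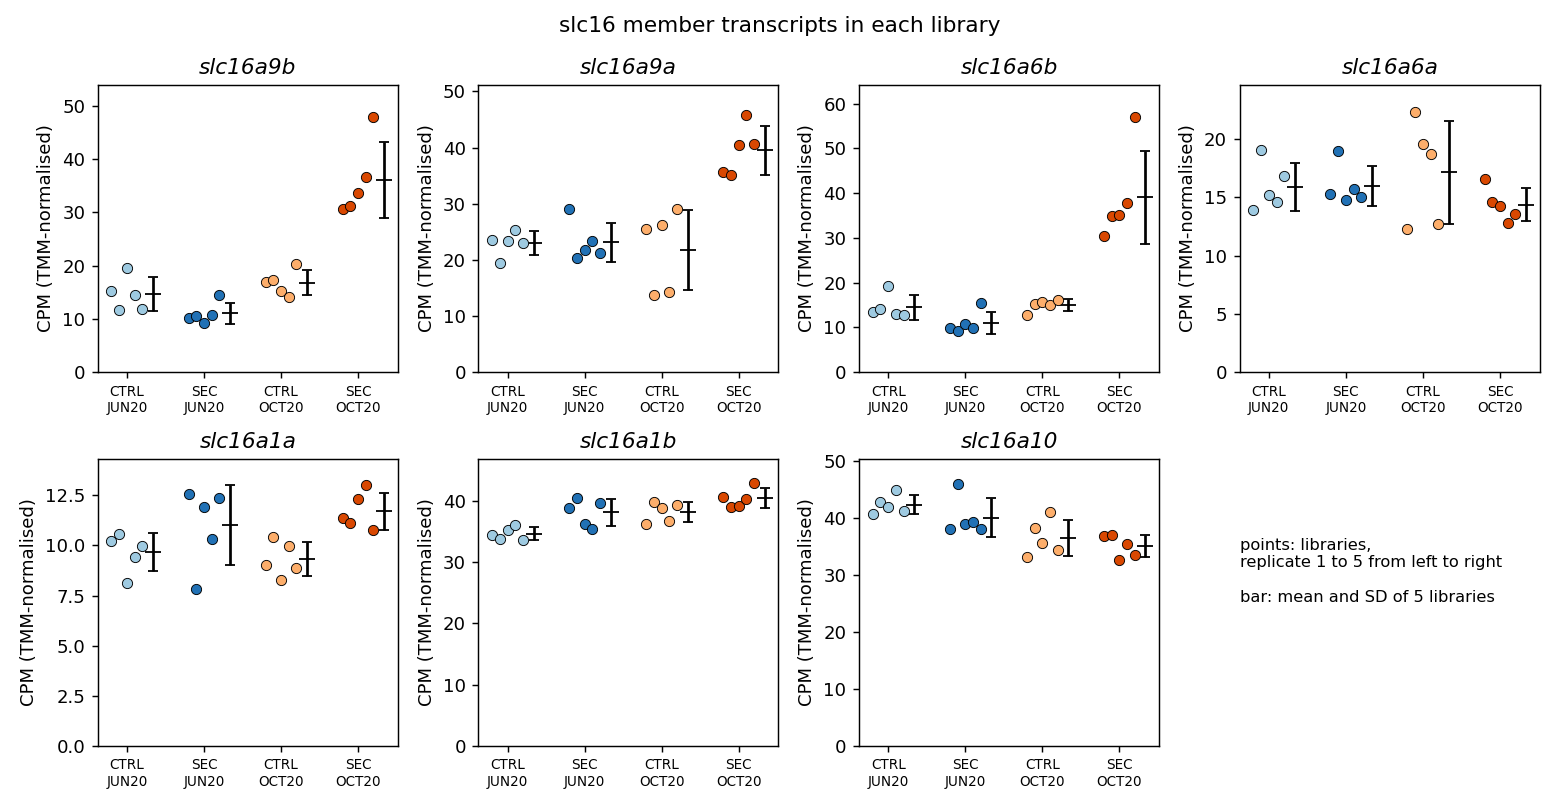
Level of each of the 7 slc16 genes in every library, in TMM-normalised CPM from 0, with 1 panel per gene and 5 points per group, and the group mean with its SD. In SEC OCT20, slc16a9b (30.6 to 48.0 CPM) and slc16a6b (30.3 to 57.0 CPM) stand above every other library, as do all SEC OCT20 points of slc16a9a, while the groups of the other 4 genes lie close together.

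The paralog slc16a9a (ENSDARG00000013926) was not picked for its values. Its CTRL JUN20 libraries held 23.6, 19.4, 23.4, 25.2 and 22.9 CPM, and its SEC JUN20 libraries 29.0, 20.3, 21.7, 23.3 and 21.2 CPM. The June groups overlapped almost wholly. CTRL OCT20 held 25.4, 13.7, 26.2, 14.3 and 29.1 CPM, and SEC OCT20 held 35.7, 35.0, 40.5, 45.8 and 40.6 CPM. All exposed October libraries lay above all October controls, which themselves fell into 3 near the June levels and 2 well below them.

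With the October extract slc16a9a rose, by 0.86 ± 0.17 on the log2 scale (adjusted p = 0.00143, edgeR), from 21.7 ± 7.20 to 39.5 ± 4.36 CPM (SD, n = 5 each). With the June extract the change was 0.01 ± 0.17 (adjusted p = 0.982, edgeR, 95% interval -0.32 to 0.34), at 22.9 ± 2.14 CPM in the controls and 23.1 ± 3.48 in the exposed larvae. The difference between the October and June effects was 0.85 ± 0.24 and did not pass the test (adjusted p = 0.104, edgeR). It passed without CTRL OCT20 replicate 5 (adjusted p = 0.0435, edgeR) and in DESeq2 (adjusted p = 0.0165). The control groups of the campaigns differed by -0.07 ± 0.17 (adjusted p = 0.856, edgeR).

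The zebrafish ketone body exporter slc16a6a (ENSDARG00000102793) passed no test. It held 13.9, 19, 15.2, 14.6 and 16.8 CPM in CTRL JUN20 and 15.3, 19, 14.8, 15.7 and 15.0 CPM in SEC JUN20. It held 12.3, 22.3, 19.6, 18.7 and 12.7 CPM in CTRL OCT20 and 16.6, 14.6, 14.2, 12.8 and 13.5 CPM in SEC OCT20. The groups overlapped in both campaigns, and the October controls spread the most. The log2 fold change was 0.00 in JUN20 (adjusted p = 0.994, edgeR, 95% interval -0.26 to 0.27) and -0.25 ± 0.14 in OCT20 (adjusted p = 0.247, edgeR, 95% interval -0.52 to 0.02). Summed levels of 6 hepatocyte markers ran from 1821 to 2382 CPM in SEC OCT20 and from 1805 to 2941 CPM in CTRL OCT20. None of the 6 was called with either extract, beside 10.8% of all genes in JUN20 and 18% in OCT20.

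Both zebrafish copies of slc16a1, whose mammalian counterpart is the broadly used proton-linked carrier of lactate, pyruvate and ketone bodies, showed small differences. The symbols here are those of the count table: RefSeq lists slc16a1b among the older names of the gene now called slc16a1a. For slc16a1a (ENSDARG00000016963) the October controls held 9.04, 10.4, 8.30, 9.98 and 8.90 CPM and the October exposed libraries 11.4, 11.1, 12.3, 13.0 and 10.7 CPM. The October groups did not overlap, although the gap between them was narrow. It rose by 0.33 ± 0.11 on the log2 scale with the October extract (adjusted p = 0.0354, edgeR).

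That call for slc16a1a was lost when SEC OCT20 replicate 3 or 4, or CTRL OCT20 replicate 1, 3 or 5, was left out (adjusted p from 0.0647 to 0.093, edgeR). In June, slc16a1a ran from 8.15 to 10.6 CPM in the controls and from 7.83 to 12.6 CPM in the exposed libraries, which overlapped. The change was 0.19 ± 0.10 (adjusted p = 0.265, edgeR, 95% interval -0.01 to 0.40). SEC JUN20 replicate 2 held the lowest June value, and without it the change passed (adjusted p = 0.0387, edgeR). The October and June effects on slc16a1a differed by 0.14 ± 0.15 (adjusted p = 0.791, edgeR).

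The other copy, slc16a1b (ENSDARG00000068572), held 34.5, 33.9, 35.3, 36.1 and 33.6 CPM in CTRL JUN20 and 38.8, 40.4, 36.3, 35.4 and 39.7 CPM in SEC JUN20. Replicate 4 of the exposed libraries lay among the controls and the other 4 above all of them. It rose by 0.14 ± 0.04 on the log2 scale with the June extract (adjusted p = 0.0465, edgeR). The call was lost without SEC JUN20 replicate 1, 2 or 5, CTRL JUN20 replicate 1, 2, 3 or 5, SEC OCT20 replicate 1, 2, 3 or 4, or CTRL OCT20 replicate 3 (adjusted p from 0.0515 to 0.127, edgeR).

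In October, slc16a1b ran from 36.3 to 39.8 CPM in the controls and from 39.1 to 43.0 CPM in the exposed libraries, which overlapped. The change was 0.08 ± 0.04 (adjusted p = 0.208, edgeR, 95% interval 0.00 to 0.17). All CTRL OCT20 libraries lay above all CTRL JUN20 libraries, a difference of 0.14 ± 0.04 that did not pass (adjusted p = 0.0622, edgeR). It passed without CTRL OCT20 replicate 4 (adjusted p = 0.0439, edgeR) and in DESeq2 (adjusted p = 0.0328).

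The gene slc16a10 (ENSDARG00000020984) has a mammalian counterpart that carries aromatic amino acids and thyroid hormones. It held 40.7, 42.9, 42.0, 44.9 and 41.3 CPM in CTRL JUN20 and 33.2, 38.3, 35.6, 41.0 and 34.5 CPM in CTRL OCT20. Replicate 4 of the October controls lay just inside the June range and the other 4 below every June control. In unexposed larvae slc16a10 was lower in OCT20, at a log2 fold change of -0.21 ± 0.06 (adjusted p = 0.0397, edgeR). The call was lost without any single CTRL JUN20 library or CTRL OCT20 replicate 1, 3 or 5 (adjusted p from 0.0539 to 0.116, edgeR), and in a fit of the 2 control groups alone (adjusted p = 0.0787, edgeR).

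With extract, slc16a10 passed no test. It ran from 38 to 46.0 CPM in SEC JUN20 and from 32.7 to 37.0 CPM in SEC OCT20, each overlapping its controls. The change was -0.08 ± 0.06 in JUN20 (adjusted p = 0.445, edgeR, 95% interval -0.20 to 0.04) and -0.06 ± 0.06 in OCT20 (adjusted p = 0.577, edgeR, 95% interval -0.18 to 0.06). The exposed groups of the campaigns differed by -0.19 ± 0.06 without overlap, beside the -0.21 ± 0.06 between their controls.

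**Figure D2:**
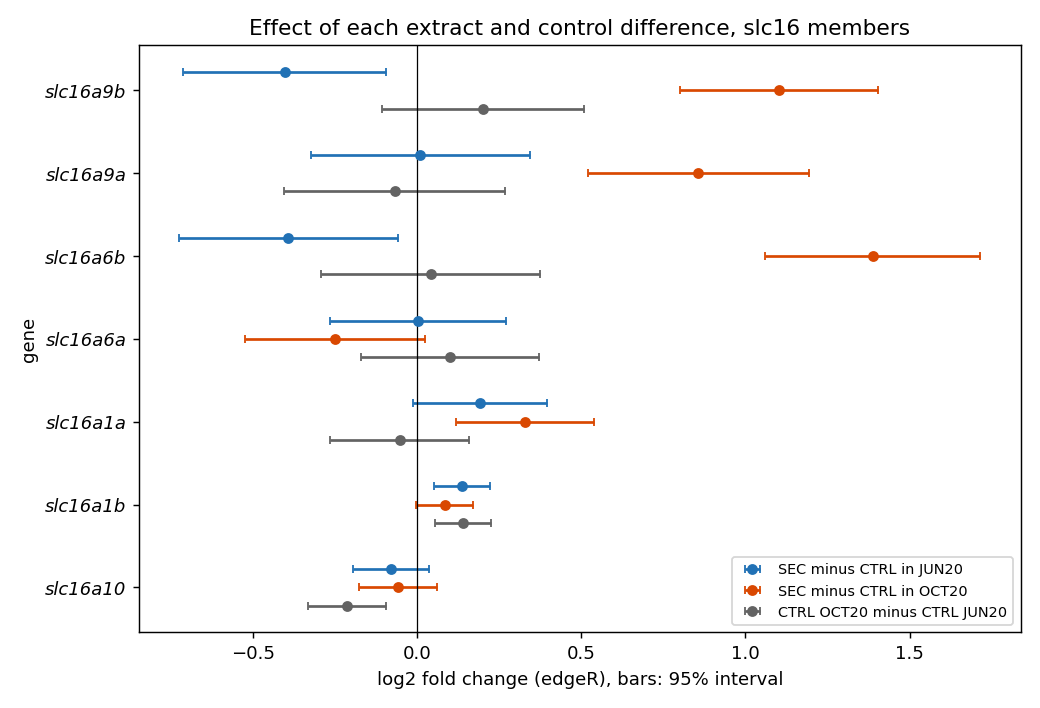
Log2 fold change of the 7 slc16 genes in the campaign comparisons, with points for the edgeR estimates and bars for the 95% interval. The highest October estimates are those of slc16a6b (1.39), slc16a9b (1.1) and slc16a9a (0.86), and the June estimates of all 7 lie between -0.40 and 0.19. The genes slc16a6b and slc16a9b were picked by their levels in exposed larvae, so their points and bars are a description.

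Among the 5 members that the choice left untouched, 1 was called in JUN20, slc16a1b, where 10.8% of all tested genes were called, 5.92% as higher and 4.9% as lower. In OCT20, 2 of these 5 were called, slc16a9a and slc16a1a, both higher, where 18% of all tested genes were called, 9.54% as higher and 8.49% as lower. For the difference between the effects 0 of the 5 were called by edgeR, with 1 at an unadjusted p under 0.05 and 1 called by DESeq2, against 1.03% of all genes, 0.787% with a larger and 0.247% with a smaller October effect. Between the controls 1 of all 7 was called, slc16a10, against 5.8% of all genes, 2.83% higher and 2.97% lower in OCT20. The difference between the effects uses the libraries of both campaign comparisons, and the control comparison shares its libraries with them. Exposed and control libraries did not overlap in 12.6% of all genes in JUN20, as in none of the 5, and in 11.1% in OCT20, as in 2 of the 5, slc16a9a and slc16a1a. The controls of the campaigns did not overlap in 5.74% of all genes and in 1 of the 7, slc16a1b. Between the exposed groups 12% of all genes were called, 6.41% as higher and 5.58% as lower in OCT20, and 11.8% did not overlap. There slc16a9b, slc16a6b and slc16a9a stood above in every OCT20 library and slc16a10 below.

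Across single libraries slc16a9b and slc16a6b also tended to move together within groups. In each group the same library was highest for both genes. It was replicate 3 in CTRL JUN20 (19.6 and 19.3 CPM) and replicate 5 in the others. After the group means were taken out, the log2 levels of the pair had a Pearson r of 0.776 over 20 libraries, 0.787 over the 10 June libraries and 0.765 over the 10 October libraries. Without SEC replicate 5 of both campaigns it was 0.603 over 18 libraries. The group means taken out there still held replicate 5. A value without CTRL JUN20 replicate 3 was not computed. These points share the scaling and depth of a library, so they are a description. The exposed October libraries of both genes also part by a division described below, whose share in these r was not tested. The paralog pairs were less alike, with r of 0.262 for slc16a9b with slc16a9a and -0.14 for slc16a6b with slc16a6a. For slc16a1a with slc16a1b it was -0.28. The 2 picked genes also tended to move with slc16a1b, at r of 0.574 for slc16a9b and 0.441 for slc16a6b. The genes slc16a9a and slc16a6a ran opposite to each other, with r of -0.70 over 20 libraries, -0.59 in JUN20 and -0.73 in OCT20.

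**Figure D3:**
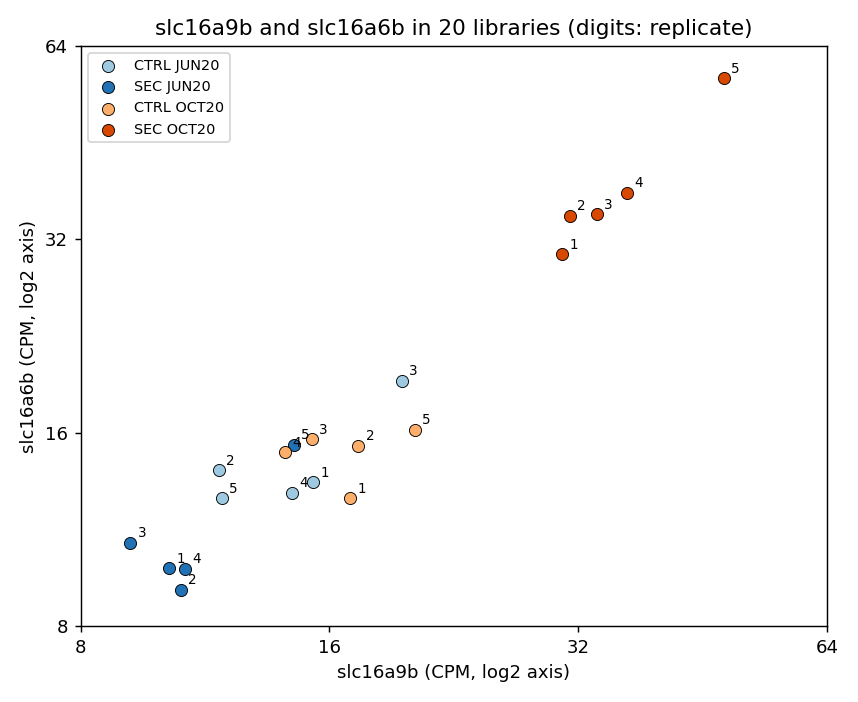
Level of slc16a6b against slc16a9b in each of the 20 libraries, in TMM-normalised CPM, coloured by group. The 5 SEC OCT20 libraries lie apart at over 30 CPM for both genes, and replicate 5 of SEC JUN20 (14.5 and 15.3 CPM) lies among the controls.

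Of 15611 genes with a symbol and a mean of at least 1 CPM, the one whose log2 level over the 20 libraries was most like slc16a9b was slc16a6b, and the reverse, with a Pearson r of 0.969. Since both were chosen for the same difference between the exposed groups, which enters this r, it restates that choice. Next to slc16a9b came smox, a spermine oxidase (r of 0.943), slc20a1b, a phosphate transporter (0.938), ndrg1b (0.936) and lrrc8db, a volume-regulated anion channel subunit (0.935). Next to slc16a6b came slc20a1b (0.965), glula, a glutamine synthetase (0.949), smox (0.937) and lrrc8db (0.918). These genes were found by their likeness to a pair chosen for its values, so their levels are a description. The mean level of ndrg1b was 44.1 and 38.5 CPM in the June controls and exposed larvae, and 50.4 and 84.2 CPM in those of October. Those of glula were 338, 326, 351 and 496 CPM in the same order, so that both were highest in SEC OCT20.

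Within groups, other genes were the most alike. Taking deviations from the group means over the 20 libraries, arrdc3b was the most like slc16a9b (r of 0.934), followed by histh1l (0.885) and h1-10 (0.856). For slc16a6b the nearest were slc16a13 (0.839), arrdc3b (0.802) and the claudin gene cldnb (0.798). For slc16a9a they were rbm10 (0.946), cited4b (0.945) and tbc1d5 (0.944), and for slc16a6a mtdhb (0.939), cfhl1 (0.937) and col28a1a (0.934). For slc16a1a they were six6b (0.811), nprl2 (0.759) and fabp11b (0.733), for slc16a1b diaph2 (0.854), alg5 (0.754) and gpx3 (0.733), and for slc16a10 prpf19 (0.869), eif2b3 (0.86) and polr2j (0.852). All are the highest of 15611 candidates, and so wide a search can give a high r to unrelated genes. The October controls of several members, slc16a9a and slc16a6a among them, also differ on average by the division described next. So do the exposed October libraries of slc16a9b and slc16a6b. The part of that division in these r was not tested.

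The 10 October libraries fell into 2 kinds that the labels do not name. The gene si:dkey-269o24.1 was at or below 29 counts in CTRL OCT20 replicates 1, 3 and 5 and SEC OCT20 replicates 4 and 5, and at 106 counts or above in the other 5, a division found in the data. The gene slc16a9a averaged 26.9 CPM in the low and 14.0 CPM in the high controls, and 43.2 and 37.1 CPM in the low and high exposed libraries. The gene slc16a6a ran the other way, with 14.9 and 20.5 CPM in the low and high controls, and 13.2 and 15.1 CPM in the exposed libraries. Its control sides overlapped (12.3 to 19.6 and 18.7 to 22.3 CPM). For slc16a10 the low controls ran from 33.2 to 35.6 CPM and the high ones from 38.3 to 41.0 CPM. For slc16a1a they ran from 8.30 to 9.04 and from 9.98 to 10.4 CPM. In the exposed libraries the sides of slc16a10 and slc16a1a overlapped. For slc16a9b the averages were 17.5 and 15.7 CPM in the low and high controls, and 42.4 and 31.9 CPM in the exposed libraries. For slc16a6b they were 14.8 and 15.1 CPM, and 47.4 and 33.4 CPM. The control sides of both genes overlapped, while their exposed sides, of 2 and 3 libraries, did not. In exposed libraries slc16a9b ran from 36.7 to 48.0 CPM on the low side and from 30.6 to 33.7 CPM on the high side. There slc16a6b ran from 37.8 to 57.0 and from 30.3 to 35.0 CPM. On each side the exposed libraries stood above the controls for slc16a9b, slc16a6b and slc16a9a. The log2 fold change of slc16a9a with the October extract was 0.68 ± 0.12 within the low side and 1.41 ± 0.13 within the high side, against 0.86 over both. The sides were found in these same libraries and part the slc16a9a controls, so the values within sides are a description. Of the fasting genes, fbxo32, a ubiquitin ligase of muscle wasting, averaged 154 CPM in the low and 50.6 CPM in the high controls, trim63a 261 and 86.2 CPM, klhl38b 76.1 and 21.9 CPM, and igfbp1b 159 and 44.8 CPM. In the exposed libraries the averages were 158 and 110 CPM for fbxo32 and 178 and 131 CPM for igfbp1b. These 4 were chosen after earlier results were known. No test was made between the sides, and what the division is was not tested.

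**Figure D4:**
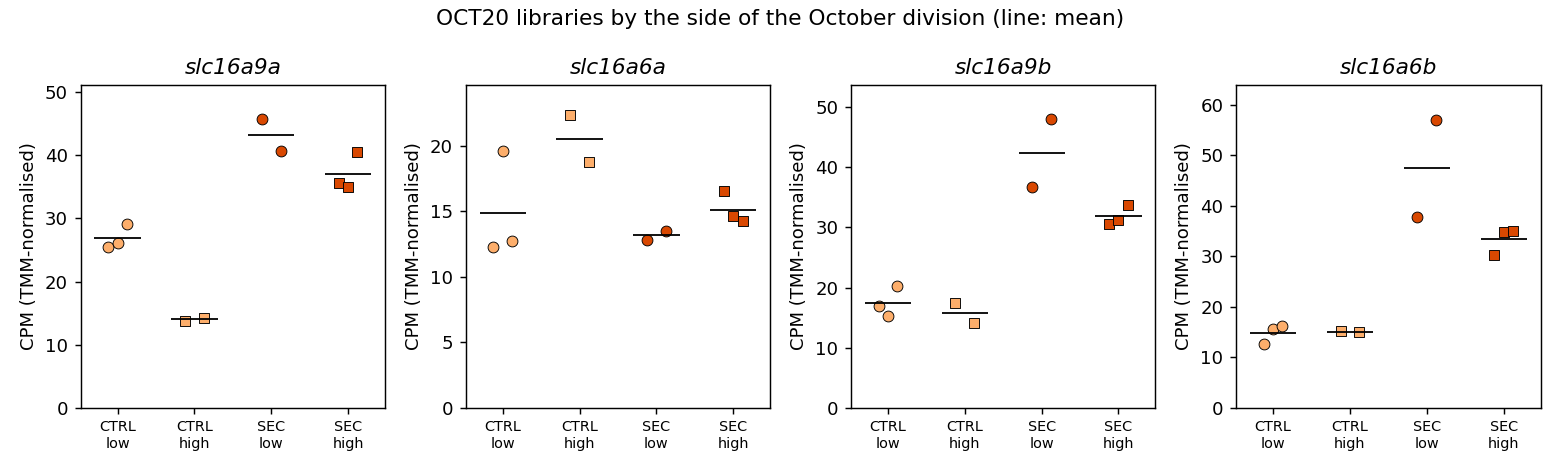
Level in the 10 October libraries, in TMM-normalised CPM from 0, split by group and by the low or high side of the division found in the data, with 1 panel per gene. In controls slc16a9a lies near 26.9 CPM on the low and near 14.0 CPM on the high side. The means of slc16a6a lie in the opposite order, with overlap of its control sides.

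Outside the 7 members, 9 other genes with an slc16 symbol were tested. With each extract 4 of the 9 rose and 0 fell, where 5.92% of all genes rose in JUN20 and 9.54% in OCT20. The 9 stood at a median log2 fold change of 0.11 in JUN20 and 0.19 in OCT20, beside 0.00 and -0.01 over all tested genes. The 4 that rose were slc16a13, slc16a4, slc16a5b and slc16a8 in each campaign. The June and October effects of slc16a13 differed (0.67 ± 0.11, adjusted p = 0.00318, edgeR). It went from 11.5 ± 0.594 to 17.0 ± 2.67 CPM with the June extract (log2 fold change 0.57 ± 0.08, adjusted p = 6.17e-05, edgeR) and from 11.8 ± 0.351 to 27.9 ± 2.13 CPM with the October extract (1.24 ± 0.08, adjusted p = 2.76e-10, edgeR; SD, n = 5 each). In neither campaign did its groups overlap.

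The gene slc16a4 rose by 0.25 ± 0.05 in JUN20 and by 0.54 ± 0.05 in OCT20 (adjusted p = 0.00363 and 1.48e-07, edgeR). The gene slc16a5b rose by 0.57 ± 0.14 and 0.98 ± 0.14 (adjusted p = 0.00881 and 3.65e-05, edgeR). For both, the exposed and control groups did not overlap in either campaign. In mammals and birds, SLC16A8 is a lactate carrier of the retinal pigment epithelium. Zebrafish slc16a8 went from 2.60 ± 0.747 to 6.94 ± 0.708 CPM in OCT20 (1.42 ± 0.20, adjusted p = 2.22e-05, edgeR). None of 6 markers listed for the pigment epithelium was called with either extract, beside 10.8% of all genes in JUN20 and 18% in OCT20. Besides rpe65a and rlbp1b the list holds the pigment genes pmela, dct, tyr and mitfa. In whole larvae it therefore does not report on that tissue alone. The tissue in which slc16a8 changed was not tested. The June change of slc16a8, 0.59 ± 0.19 (adjusted p = 0.0474, edgeR), was lost in 12 of the 20 fits that left out 1 library, at adjusted p up to 0.109. Those were the fits without SEC JUN20 replicate 1, 3 or 5, CTRL JUN20 replicate 1, 3, 4 or 5, or any SEC OCT20 library.

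Of the rest, slc16a3 and slc16a7 (lactate carriers in mammals), slc16a5a, slc16a12b and slc16a12a passed no test with extract. The human counterpart of slc16a12a carries creatine. Zebrafish slc16a12a was lower in October than in June controls, at 11.3 ± 2.48 against 16.9 ± 1.89 CPM (-0.57 ± 0.12, adjusted p = 0.00665, edgeR). It was the single call among the 9 in that comparison, beside 5.8% of all genes called.

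**Figure D5:**
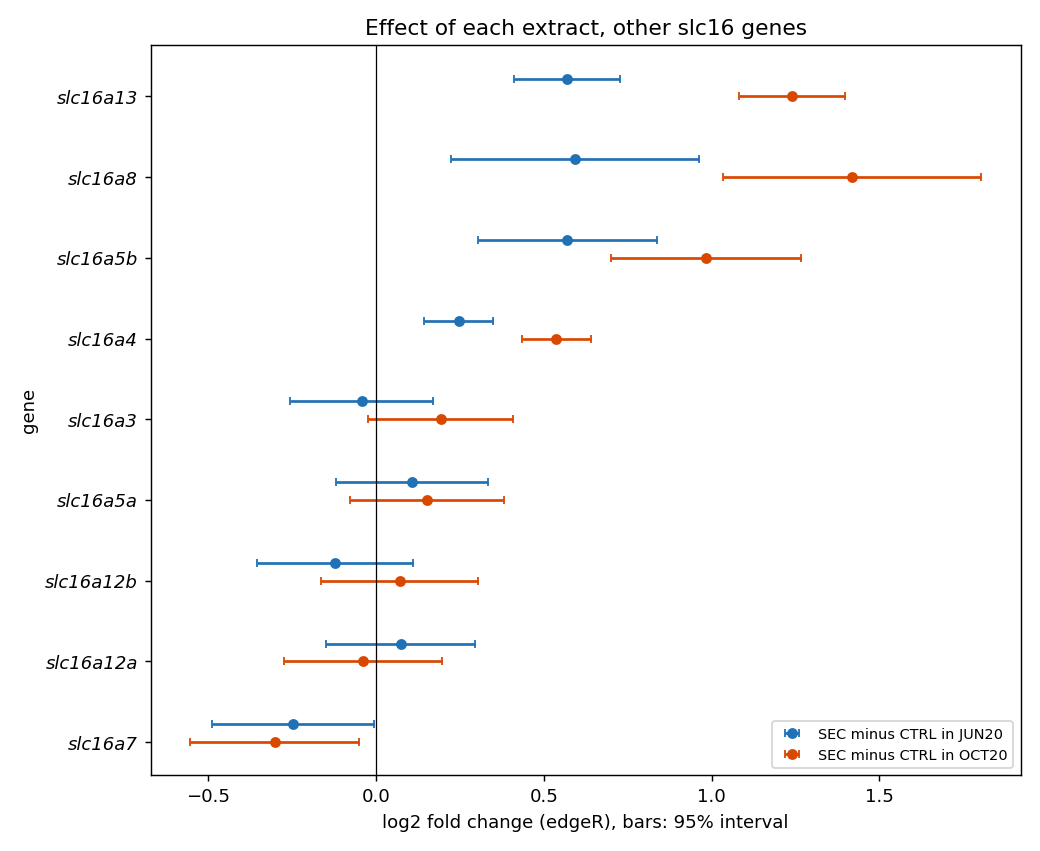
Log2 fold change of the 9 other slc16 genes with the June and the October extract, with points for the edgeR estimates and bars for the 95% interval. The genes slc16a13, slc16a4, slc16a5b and slc16a8 lie above 0 in each campaign, with slc16a8 highest in OCT20 at 1.42.

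Of 4 tested genes for glycoproteins that bring slc16 carriers to the membrane, 1 rose and 1 fell with the October extract, and 0 rose and 1 fell with the June extract, beside 18% and 10.8% of all genes called. The gene bsg (basigin) rose in OCT20 by 0.18 ± 0.03 on the log2 scale, from 317 ± 9.45 to 358 ± 6.90 CPM (adjusted p = 0.000602, edgeR). In JUN20 its change was 0.06 ± 0.03 (adjusted p = 0.295, edgeR). The neuroplastin gene nptna fell by 0.13 ± 0.04 in OCT20 (adjusted p = 0.0136, edgeR) and by 0.11 ± 0.04 in JUN20 (adjusted p = 0.0481, edgeR). The June call was lost in 16 of the 20 fits that left out 1 library, all but those without CTRL JUN20 replicate 5, SEC OCT20 replicate 1 or CTRL OCT20 replicate 4 or 5. The medians of the 4 were -0.09 in JUN20 and 0.00 in OCT20.

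Around the members, genes that handle what these carriers move were counted. Over all tested genes 10.8% were called in JUN20 and 18% in OCT20, at medians of 0.00 and -0.01. In lactate and pyruvate metabolism, 5 of 34 genes rose and 3 fell with the June extract, and 13 rose and 5 fell with the October extract. That is 23.5% and 52.9% of the list, against 10.8% and 18% of all genes, with medians of 0.05 and 0.11. The 8 June calls became 4 to 9 when 1 library was left out, and moved by over 1.5 times without SEC JUN20 replicate 2, 4 or 5 or CTRL JUN20 replicate 3 or 5. Lactate dehydrogenase ldhbb rose in OCT20 from 18.5 ± 2.19 to 30.2 ± 3.77 CPM (0.70 ± 0.10, adjusted p = 4.29e-05, edgeR) and pyruvate kinase pkma by 0.37 ± 0.04 (adjusted p = 2.15e-06, edgeR). Pyruvate carboxylase pcxa fell by 0.29 ± 0.05 (adjusted p = 0.00016, edgeR). In JUN20 hexokinase hk2 rose from 7.70 ± 1.26 to 13.2 ± 0.730 CPM (0.77 ± 0.11, adjusted p = 5.4e-05, edgeR), while pyruvate kinase pkmb fell by 0.32 ± 0.07 (adjusted p = 0.00339, edgeR). Some of these calls were shared. In JUN20 pkma also rose, by 0.17 ± 0.04, and pcxa fell, by 0.15 ± 0.05 (adjusted p = 0.0146 and 0.04, edgeR). In OCT20 pkmb also fell, by 0.27 ± 0.07 (adjusted p = 0.00726, edgeR). Neither ldhbb in JUN20 nor hk2 in OCT20 was called (adjusted p = 0.651 and 0.188, edgeR). The October and June effects on ldhbb differed by 0.61 ± 0.15 (adjusted p = 0.0434, edgeR), the single call of the list in that comparison. For hk2 the difference, -0.55 ± 0.15, did not pass (adjusted p = 0.0836, edgeR). Over all genes 1.03% were called there. Between the controls 0 of the 34 rose and 4 fell, among them the glucose transporter slc2a1a, by 0.34 ± 0.06 (adjusted p = 0.00222, edgeR). Those 4 are 11.8% of the list, against 5.8% of all genes, 2.83% called higher and 2.97% lower in OCT20. Without CTRL OCT20 replicate 2 these 4 calls became 8. Over all genes the 1341 control calls ran from 704 to 2410 when 1 library was left out.

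In ketone body metabolism 2 of 10 genes rose with each extract and 0 fell, at medians of 0.14 in JUN20 and -0.06 in OCT20. The share of 20% was near the 18% of all genes in OCT20 and stood beside 10.8% in JUN20. They were bdh1, the dehydrogenase that interconverts the main ketone bodies, and oxct1b, which starts their use as fuel. The change of bdh1 was 0.35 ± 0.07 in JUN20 and 0.32 ± 0.07 in OCT20 (adjusted p = 0.00127 and 0.00166, edgeR). That of oxct1b was 0.35 ± 0.10 and 0.60 ± 0.10 (adjusted p = 0.0291 and 0.00028, edgeR). Its June call was lost without SEC JUN20 replicate 2, 3, 4 or 5 or CTRL JUN20 replicate 1, 3, 4 or 5 (adjusted p up to 0.0656, edgeR). The paralog oxct1a was not called with either extract, at 0.02 ± 0.04 and -0.03 ± 0.04 (adjusted p = 0.717 and 0.577, edgeR).

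Of 25 genes of carnitine and creatine metabolism, 3 rose and 1 fell in JUN20, and 9 rose and 5 fell in OCT20, at medians of 0.04 and 0.01. These are 16% and 56% of the list, against 10.8% and 18% of all genes. The largest change among those named was in bbox1, the enzyme of the last step of carnitine synthesis. It went from 34.3 ± 1.45 to 81.6 ± 5.26 CPM with the June extract (1.25 ± 0.13, adjusted p = 2.38e-06, edgeR) and from 24.0 ± 5.89 to 118 ± 11.0 CPM with the October extract (2.30 ± 0.13, adjusted p = 2.08e-10, edgeR). These effects differed by 1.05 ± 0.18 (adjusted p = 0.00436, edgeR). The October controls were themselves lower than the June controls, at -0.52 ± 0.13 (adjusted p = 0.0225, edgeR), a call lost without CTRL JUN20 replicate 3 (adjusted p = 0.0515, edgeR). The gene cpt1ab, for a carnitine palmitoyltransferase that commits fatty acids to the mitochondrion, rose by 0.35 ± 0.09 and 0.78 ± 0.09 (adjusted p = 0.0153 and 3.26e-06, edgeR). Its muscle-type relative cpt1b rose by 0.91 ± 0.13 in OCT20 (adjusted p = 5.21e-05, edgeR). The mitochondrial creatine kinase gene ckmt2a fell by 0.46 ± 0.10 there (adjusted p = 0.00242, edgeR). Another such gene, ckmt1, rose by 0.38 ± 0.10 in JUN20 and by 0.32 ± 0.10 in OCT20 (adjusted p = 0.0163 and 0.027, edgeR). The gene ckmt2b was not called with either extract (adjusted p = 0.761 and 0.676, edgeR).

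A list of 32 genes around aromatic amino acids held amino acid carriers and genes of breakdown, amine synthesis and cofactor recycling. Of these, 6 rose and 3 fell in JUN20, and 6 rose and 5 fell in OCT20, at a median of 0.03 in each. These are 28.1% and 34.4% of the list, against 10.8% and 18% of all genes. The tyrosine breakdown enzyme fah rose by 0.64 ± 0.07 and 0.56 ± 0.07 (adjusted p = 4.26e-06 and 8.18e-06, edgeR). The amino acid carrier gene slc6a19b fell by 0.49 ± 0.12 in JUN20 and by 0.71 ± 0.12 in OCT20 (adjusted p = 0.0105 and 0.000217, edgeR). Of 14 thyroid hormone genes 2 rose and 2 fell with each extract, which is 28.6% against 10.8% of all genes in JUN20 and 18% in OCT20. Among them slco1d1, an organic anion carrier, rose by 0.42 ± 0.08 and 0.83 ± 0.08 (adjusted p = 0.00104 and 6.82e-08, edgeR), and slco2b1, of the same family, fell by 0.44 ± 0.06 and 0.58 ± 0.06 (adjusted p = 1.92e-05 and 1.38e-07, edgeR). The medians of the thyroid hormone genes were 0.04 and 0.07, and the 4 June calls became as few as 2 without SEC JUN20 replicate 3 or 4 or CTRL JUN20 replicate 5.

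Of 24 genes that respond to fasting, 0 rose and 1 fell in JUN20, and 4 rose and 1 fell in OCT20, at medians of 0.08 and 0.17. The share called was 4.17% in JUN20, below the 10.8% of all genes, and 20.8% in OCT20, near the 18% of all genes. Of the 4 genes that rose in OCT20, cpt1b is also counted above in the carnitine and creatine list. The genes pck1 and pdk2a are also counted in the lactate and pyruvate list. In OCT20 angptl4, an inhibitor of lipoprotein lipase, went from 79.0 ± 11.2 to 129 ± 7.78 CPM (0.71 ± 0.08, adjusted p = 2.37e-06, edgeR). The gluconeogenesis enzyme pck1 rose by 0.73 ± 0.20 (adjusted p = 0.0152, edgeR). In both campaigns sesn3, a stress-responsive sestrin, fell, by 0.29 ± 0.05 and 0.19 ± 0.05 (adjusted p = 0.000529 and 0.00831, edgeR). The October effect on angptl4 exceeded the June effect by 0.50 ± 0.12 (adjusted p = 0.039, edgeR). It was the single call of the list in that comparison, where 1.03% of all genes were called. The single June call became up to 3 calls without SEC JUN20 replicate 3 or CTRL OCT20 replicate 2, 4 or 5. Without CTRL OCT20 replicate 5 the October calls in this list numbered 9 in all instead of 5.

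The genes beside slc16a9b and slc16a6b on the chromosome, in the order of the RefSeq annotation of assembly GRCz12tu, had smaller or opposite October values. Both members were chosen for a large difference, so smaller values beside them were likely beforehand and are a description. Next to slc16a9b, phyhiplb rose by 0.27 ± 0.07 in OCT20 (adjusted p = 0.00901, edgeR), and the log2 fold change of ccdc6b was 0.00 ± 0.05 (adjusted p = 0.982, edgeR). Further out, zgc:171971 and rhobtb1 were at -0.16 ± 0.06 and 0.30 ± 0.11 (adjusted p = 0.0723 and 0.0684, edgeR). Next to slc16a6b, wipi1 and gna13b each had a value of 0.07 (adjusted p = 0.536 and 0.478, edgeR). The next tested genes out, zgc:86896 and rgs9a, fell by 0.54 ± 0.10 and 0.40 ± 0.08 (adjusted p = 0.000882 and 0.000742, edgeR). They were lower with the June extract too, at -0.48 ± 0.10 and -0.30 ± 0.08 (adjusted p = 0.00495 and 0.0131, edgeR). Beside slc16a9a the values were 0.18 ± 0.37 for npy4r and -0.10 ± 0.04 for ccdc6a (adjusted p = 0.795 and 0.112, edgeR).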

How the data were processed

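Per the submitters' processing notes, reads were demultiplexed with CASAVA and aligned with STAR 2.7.8a to zebrafish build GRCz11; SAMtools and DESeq2 (3.17) are also named. The authors deposited raw counts per gene, whole numbers in all 20 libraries. The labels' protocols give stranded libraries with molecular identifiers; the counting tool, the annotation release and any collapsing of identifiers are not stated there.

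From the counts, genes were filtered with filterByExpr (minimum count 10), scaled with TMM and tested with edgeR 4.0.16 in R 4.3.3 (quasi-likelihood F test, robust) in 1 fit of 4 group means over 20 libraries. P-values were adjusted by the Benjamini-Hochberg method over 23121 genes; an SE is the absolute log2 fold change over the square root of F, and intervals use the normal approximation. The steps were tested on simulated data. Alternatives were DESeq2 1.42.0, other scaling and filters, a replicate block, the compared groups alone, the October division and each library left out.

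The members and gene lists were chosen with earlier results of these data known. Of 208 list members 205 matched the table. The text names the 7 members and, per list and comparison, genes among the 4 with the smallest p. It also names some of their paralogs and shared list members, the genes most alike by Pearson r, and the nearest neighbours. No sequences were used here.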

Additional observations from a re-analysis of the deposited data

Results flagged for a closer look

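In 6 of the 28 combinations of member and group, 1 library stood far from the other 4. For independent combinations chance gives about 1 in 20. The members share libraries, so no excess can be read from the 6. The level of slc16a9b in SEC JUN20 replicate 5 was 14.5 CPM, and that of slc16a6b in the same library was 15.3 CPM, both above the rest of that group. In SEC OCT20 replicate 5, slc16a6b reached 57.0 CPM, where the next library held 37.8 CPM. In CTRL JUN20 replicate 3, slc16a6b was at 19.3 CPM. In SEC JUN20 replicate 2, slc16a6a was at 19 CPM and slc16a10 at 46.0 CPM, each the highest of the group.

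Every SEC JUN20 library held less slc16a9b than the mean of its controls, and every SEC OCT20 library held more. The difference between the October and June effects was 1.5 on the log2 scale. It was not tested, since the gene had been chosen on these libraries.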

How the results depend on the processing

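Of the alternatives, those that left out no library kept the direction of every member in every comparison, except slc16a10 in the difference between the effects, which went from 0.02 to -0.027 with library totals alone and to -0.00077 with the October side as a term. With 1 library left out, estimates near 0 changed sign: slc16a9a (-0.082 to 0.052) and slc16a6a (-0.065 to 0.078) in JUN20, slc16a10 in the difference (-0.011 to 0.075), slc16a9a (-0.20 to 0.061) and slc16a6a (-0.012 to 0.20) between controls, and slc16a1a (-0.012 to 0.13) between exposed groups.

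Replicate numbers did not pair the libraries (same-number correlations from -0.36 to 0.23). With the replicate block, members called went from 1 to 0 in JUN20 (slc16a1b, adjusted p = 0.13, edgeR) and from 2 to 1 in OCT20 (slc16a1a, adjusted p = 0.0746, edgeR), and genes called for the difference from 239 to 116. The October side was found in these same libraries, so fits that use it are a description. Within the low and the high October side 1 member each was called in OCT20. There slc16a1a was lost (adjusted p = 0.0546 and 0.444, edgeR), and slc16a6b was at 1.68 on the low side. Calls over all genes are not given here for the fits within sides, nor for the block in each campaign. Whether the members followed a general loss of calls there cannot be read from these counts. With the side as a term or DESeq2, 1 member was called for the difference (slc16a9a) and 2 between controls, and all genes called were 629 and 593 for the difference and 2205 and 2032 between controls, against 239 and 1341. The side term gave 5026 against 2770 between exposed groups. With the 2 compared groups alone, 2763 against 4168 genes were called in OCT20, and 565 genes and 0 members between controls.

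Leaving out 1 library gave 1826 to 2800 genes in JUN20, 3394 to 4447 in OCT20, 134 to 330 for the difference, 704 to 2410 between controls and 1692 to 3225 between exposed groups. Members called ran from 0 to 1 in JUN20, 1 to 2 in OCT20, 0 to 1 for the difference and 0 to 2 between controls. With library totals alone the share of calls that were higher went from 54.7% to 71.3% in JUN20, 76.2% to 47.5% for the difference, 48.8% to 38.4% between controls and 53.5% to 22.3% between exposed groups.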
